A study of Rattus norvegicus with 78 samples.

Results

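Adam2, Adam3a, Adam5, Adam18 and Adam32 encode members of the ADAM family that sit on the surface of sperm. They were chosen by gene symbol, and all 5 were on the array, each with a single probe set, among 14506 named genes. Adam2, on chromosome 15, encodes fertilin beta. The other members follow each other on chromosome 16 in the order Adam32, Adam5, Adam3a and Adam18 in the RefSeq annotation of the rat assembly GRCr8.

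ADAM proteins are membrane proteins with a disintegrin domain, which can bind other cells, and a domain of the metalloprotease type. The sperm members are made by male germ cells, fold in the endoplasmic reticulum with the help of germ cell chaperones, form complexes with each other and are trimmed by proteases as sperm mature. In mice, loss of Adam2 or of the mouse counterpart of Adam3a leaves sperm that pass poorly from the uterus into the oviduct and bind poorly to the coat of the egg.

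RNA came from sperm let out of the punctured cauda epididymis of Fischer 344 rats, pelleted and treated briefly with an ammonium chloride lysis buffer, with 1 array per sample. When a 3-month exposure ended, 20 arrays were made for the corn oil group and 20 for rats given DBCP (dibromochloropropane, a soil fumigant that is toxic to male germ cells) at 5 mg/kg/day. After recovery, whose length is not stated, each treatment had 19 more arrays. Replicates are called biological in the labels, which name sperm as the tissue of every group and give no age, whereas testis stands in the series title.

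The arrays carried both sperm transcripts and transcripts of other cells. Group means of the sperm markers were 12.82 to 13.16 for Prm1, a protamine, 14.10 to 14.13 for Odf1 of the tail fibres and 14.10 to 14.18 for Smcp of the mitochondrial capsule, all as log2 values. Those of the leukocyte genes Ptprc (8.11 to 8.86) and Cd74 (10.89 to 11.87), the globin gene Hbb (11.66 to 12.20) and the stromal gene Dcn (10.17 to 11.00) were not near the bottom of the scale. The stromal gene Col1a1 had 8.37 to 8.52. The epididymal genes Lcn5 (6.79 to 7.12) and Crisp1 (7.00 to 7.43) lay closer to the array medians, whereas the epididymal gene Adam7 had 8.43 to 8.66. The mean level of 15 epididymal principal cell genes was 6.85 to 6.91 by group. Array medians lay between 6.55 and 6.75, and the number of arrays limits the precision. In 6 arrays the limma array weight was under 0.5 (3 DBCP arrays at the end of exposure, 2 DBCP and 1 corn oil array after recovery), and results that rest on them are given with and without them.

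Adam3a and Adam5 were the members that changed. Both fell between the end of exposure and the time after recovery, in corn oil rats and in DBCP rats, while Adam2, Adam18 and Adam32 did not pass the test in any comparison. No member passed in a comparison of DBCP with corn oil. In a bulk sample, fewer cells of a type and less RNA per cell cannot be told apart.

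Adam3a, the rat counterpart of mouse cyritestin, had log2 values from 6.96 to 8.93 with a median of 7.95 in corn oil rats at the end of exposure. In DBCP rats at that time they ran from 7.45 to 10.25 (median 8.28). After recovery they ran from 7.02 to 8.03 (median 7.59) in corn oil rats and from 7.06 to 8.36 (median 7.42) in DBCP rats. The exposed rats thus had the highest single arrays, all groups overlapped, and both recovery groups lay in the lower part of the range.

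Adam5, which encodes the sperm surface protein also called tMDCII, ran from 7.07 to 8.96 (median 7.77) in corn oil rats and from 7.56 to 10.11 (median 8.28) in DBCP rats at the end of exposure. After recovery the range was 6.79 to 7.93 (median 7.46) in corn oil rats and 6.96 to 8.13 (median 7.44) in DBCP rats. The order of the group means was the same for Adam3a and Adam5, with DBCP first, then corn oil, then DBCP after recovery and corn oil after recovery. The first and second places did not differ by limma's test, nor did the third and the last, and the groups overlapped at every step.

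Adam2, Adam18 and Adam32 had group means that lay close together. Adam2 had group means of 6.14 ± 0.19 (SD, n = 20) in corn oil rats, 6.22 ± 0.25 (n = 20) in DBCP rats, and 6.05 ± 0.10 and 6.07 ± 0.19 (n = 19 each) after recovery in corn oil and DBCP rats. Adam18, also called tMDCIII, had means of 5.86 ± 0.12, 5.83 ± 0.21, 5.83 ± 0.13 and 5.91 ± 0.16 in the same order. Adam32, a testis gene of less known role, had 6.77 ± 0.16, 6.83 ± 0.35, 6.74 ± 0.16 and 6.75 ± 0.24, with single DBCP arrays from 6.24 to 7.87 at the end of exposure. The means of Adam2 and Adam18 lay below all array medians and those of Adam32 close to them. The files give no detection call, so how much of these 3 signals is above background is not known.

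**Figure D1:**
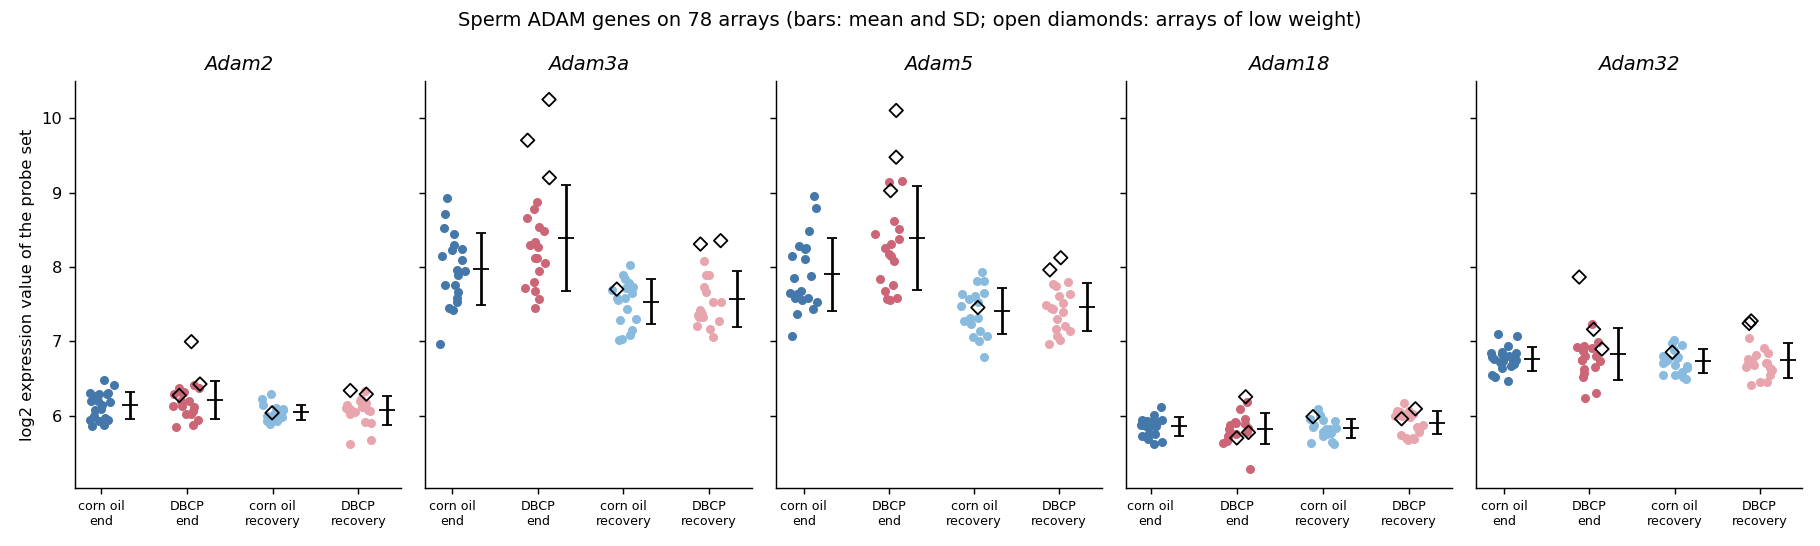
Log2 value of each member (y axis) on each of 78 arrays by group (x axis). Points are arrays, bars are the mean with SD, and open diamonds are the 6 arrays of low weight. Adam3a and Adam5 reach above 10 on 1 DBCP array and sit lower after recovery, while the group means of the other members lie close together and 1 DBCP array reaches 7.87 for Adam32.

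The comparison of recovery with the end of exposure in corn oil rats concerns the collection times without the toxicant. Any difference in age, collection or array run between the times cannot be told apart from recovery itself, in either treatment. Adam5 fell by 0.50 ± 0.15 (SE, log2 difference, a 1.42-fold lower level, limma adjusted p = 0.0115), and 18 of 19 recovery arrays lay below the earlier mean. Adam3a fell by 0.45 ± 0.16 (1.36-fold, limma adjusted p = 0.0282), also on 18 of 19 arrays. Thus 2 of 5 members fell, where 12.8% of all 29214 probe sets fell, 11.5% rose and 24.3% passed in either direction. The other differences were -0.10 ± 0.06 for Adam2, -0.03 ± 0.05 for Adam18 and -0.03 ± 0.08 for Adam32 (limma adjusted p = 0.251, 0.751 and 0.796).

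The call of Adam3a in corn oil rats depended on a single array, while Adam5 passed whichever array was left out (limma adjusted p = 0.00549 to 0.0232). Without the 6 arrays of low weight both passed (Adam3a -0.455 and Adam5 -0.504, limma adjusted p = 0.00401 and 0.00255). Without corn oil replicate 4, which had the highest Adam3a and Adam5 of its group, Adam3a no longer passed (-0.40, limma adjusted p = 0.05). With each array centred on its median Adam3a did not pass either (-0.41, limma adjusted p = 0.0562). Within replicate numbers 1 to 10 both genes passed (Adam3a -0.69, limma adjusted p = 0.0104, and Adam5 -0.62, limma adjusted p = 0.0256). Within numbers 11 to 20 neither did (Adam3a -0.20 and Adam5 -0.39, limma adjusted p = 0.648 and 0.304), and there only 385 probe sets passed in all.

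In DBCP rats the same comparison gave larger falls. Adam5 fell by 0.93 ± 0.15 (1.90-fold, limma adjusted p = 4.91e-06) and was under the DBCP mean of the earlier time on 19 of 19 arrays. On 12 of these it lay below the lowest array at the end of exposure. Adam3a fell by 0.82 ± 0.16 (1.77-fold, limma adjusted p = 6.98e-05), likewise on 19 of 19 arrays, and 10 lay below the earlier range. Again 2 of 5 members fell, where 6.19% of all probe sets fell, 7.28% rose and 13.5% passed in either direction.

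Adam2 had a difference of -0.14 ± 0.06 in DBCP rats (limma adjusted p = 0.113), Adam18 0.08 ± 0.05 (0.324) and Adam32 -0.08 ± 0.08 (0.523). The falls of Adam3a and Adam5 passed within replicate numbers 1 to 10 (-0.77 and -0.96) and within 11 to 20 (-0.87 and -0.90). Without the 6 arrays of low weight they were -0.68 and -0.79 (limma adjusted p = 1.02e-04 and 1.56e-05).

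The study looked for sperm transcripts that mark testis damage by DBCP, which the comparison of treatments at the end of exposure addresses. Adam5 had a log2 difference of 0.49 ± 0.15 (1.40-fold, 95% confidence interval 0.19 to 0.78, limma adjusted p = 0.168), with 14 of 20 DBCP arrays above the corn oil mean. Adam3a had 0.42 ± 0.15 (0.11 to 0.72, limma adjusted p = 0.240), also with 14 of 20. The others had 0.08 ± 0.06 (Adam2), -0.03 ± 0.05 (Adam18) and 0.06 ± 0.07 (Adam32), with limma adjusted p-values of 0.602, 0.815 and 0.736. With limma 0 of 5 members passed, as did 0 of all probe sets (0%), of which 3386 had an unadjusted p under 0.05.

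The upper end of the DBCP range rested on few arrays. DBCP replicates 13, 2 and 20 had Adam3a values of 10.25, 9.71 and 9.20 and Adam5 values of 10.11, 9.48 and 9.03, and all 3 are among the arrays of low weight. Their levels of 29 spermatid genes were 11.08, 10.78 and 10.46, where the median DBCP array had 9.98. For Adam5, DBCP replicates 10 and 3 were also high (9.16 and 9.15). Both lay above replicate 20 and are not of low weight. Without the 6 arrays of low weight the differences were 0.28 for Adam5 and 0.18 for Adam3a (limma adjusted p = 1 each). Within replicate numbers 1 to 10 they were 0.27 and 0.10, and within 11 to 20 they were 0.70 and 0.74. None of these passed.

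After recovery, DBCP and corn oil rats had nearly equal means. The differences were 0.03 ± 0.06 (Adam2), 0.04 ± 0.16 (Adam3a), 0.06 ± 0.15 (Adam5), 0.07 ± 0.05 (Adam18) and 0.01 ± 0.08 (Adam32), with limma adjusted p-values between 0.983 and 0.996. The 95% confidence intervals were -0.27 to 0.35 for Adam3a and -0.24 to 0.36 for Adam5. With limma 0 members and 0 probe sets (0%) passed, and 1084 probe sets had an unadjusted p under 0.05.

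The interaction compares the fall in DBCP rats with that in corn oil rats. It was -0.43 ± 0.21 for Adam5 (95% confidence interval -0.85 to -0.0017, limma adjusted p = 0.459) and -0.38 ± 0.22 for Adam3a (-0.81 to 0.06, limma adjusted p = 0.473). The larger falls in DBCP rats were therefore not shown to differ from those in corn oil rats. The other 3 members had -0.05 ± 0.09 (Adam2), 0.10 ± 0.07 (Adam18) and -0.05 ± 0.11 (Adam32). With limma 0 members and 0 probe sets (0%) passed, and 3170 had an unadjusted p under 0.05. These comparisons share arrays with those above, so their values are not independent of each other.

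**Figure D2:**
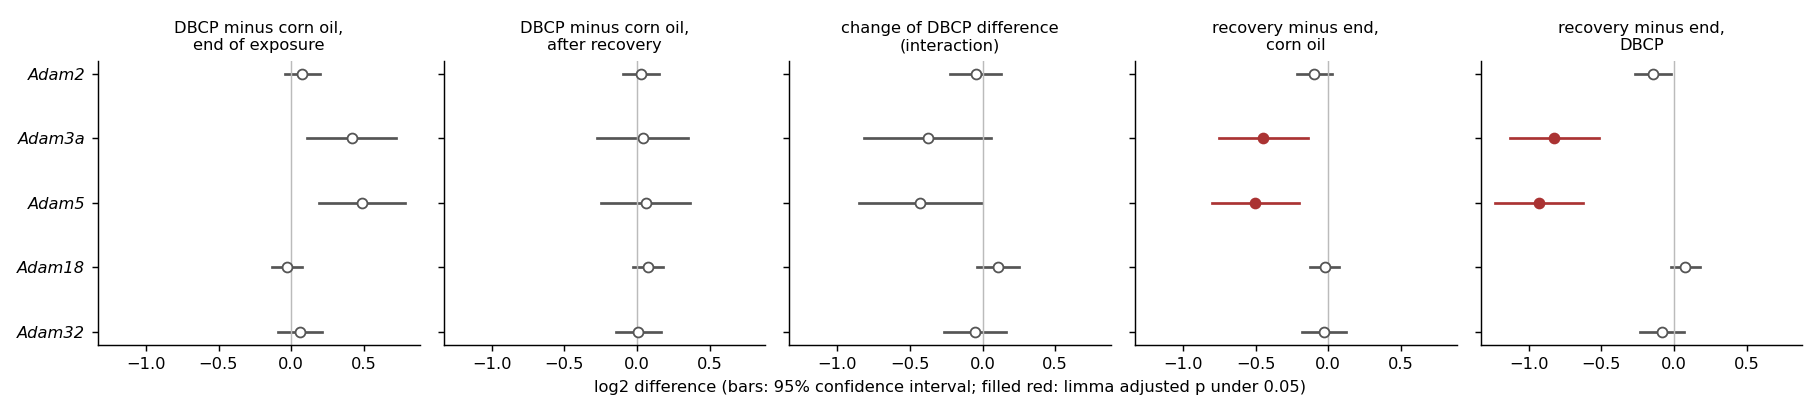
Log2 difference of each member (x axis) with its 95% confidence interval, in 5 comparisons (panels). Filled red points passed limma's test over all probe sets. Adam3a and Adam5 are the red points, at -0.45 and -0.50 in corn oil rats and -0.82 and -0.93 in DBCP rats.

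Members were then compared with each other, by the difference of a pair on each array. The 10 pairs in 5 comparisons gave 50 two-sided permutation tests (100000 resamples, Benjamini-Hochberg over all 50). In both comparisons over time, the values of Adam3a and Adam5 fell more than those of each of the other 3 members. These are gaps between probe sets: a probe set near background can show little of a fall, and how far Adam2, Adam18 and Adam32 lie above background is not known, so unequal change of the genes themselves was not tested. The smallest such gap was that between Adam2 and Adam3a in corn oil rats (0.35 ± 0.11, permutation test p = 0.00196, adjusted p = 0.00754). The widest was between Adam5 and Adam18 in DBCP rats (-1.01 ± 0.16, permutation test p = 1e-05, the smallest that 100000 resamples can give, adjusted p = 1e-04).

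Adam3a and Adam5 did not differ from each other by this test. The difference of their changes was 0.06 ± 0.06 in corn oil rats (95% confidence interval -0.07 to 0.18) and 0.11 ± 0.07 in DBCP rats (-0.03 to 0.24; permutation test adjusted p = 0.524 and 0.242). Adam2 and Adam18 differed in DBCP rats (-0.22 ± 0.07, permutation test p = 0.00136, adjusted p = 0.00618). In all, 6 pairs passed in corn oil rats and 7 in DBCP rats, with the same 2 counts without the 6 arrays of low weight. In replicate numbers 11 to 20 alone 0 passed in corn oil rats and 6 in DBCP rats.

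At the end of exposure, 5 pairs passed in the comparison of DBCP with corn oil, each of them Adam3a or Adam5 against one of the other members. Adam5 exceeded Adam18 by 0.52 ± 0.18 (permutation test p = 0.00588, adjusted p = 0.0210) and Adam32 by 0.43 ± 0.15 (p = 0.00718, adjusted p = 0.0239). Without the 6 arrays of low weight 0 of these pairs passed, as in replicate numbers 1 to 10 alone, with 1 in numbers 11 to 20. After recovery 0 pairs passed the permutation test. For the interaction 0 passed too, but recovery labels were permuted within each treatment, which removes the change over time as well as the interaction. The test is therefore not one of the interaction alone and cannot show that it is absent. At an unadjusted p under 0.05, the interaction of Adam5 with Adam18 (-0.53 ± 0.20, 95% confidence interval -0.93 to -0.14, permutation test p = 0.0495) was the only pair.

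Within groups, Adam3a and Adam5 varied together. After subtraction of the group means, their Pearson r over the 78 arrays was 0.910, and 0.862 over the 72 arrays without those of low weight. Within single groups it was 0.950 in corn oil rats, 0.928 in DBCP rats, and 0.715 and 0.907 in corn oil and DBCP rats after recovery. These points share an array, its scale and its mix of cells, so the correlations are descriptions.

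Adam32 followed both genes less closely, with r = 0.746 to Adam3a and 0.644 to Adam5, and Adam2 had 0.668 and 0.600. Adam18, whose neighbour on the chromosome is Adam3a, had 0.376 to it and 0.368 to Adam5. Without the 6 arrays of low weight these r were lower. They were 0.599 and 0.462 for Adam32, 0.525 and 0.435 for Adam2, and 0.320 and 0.305 for Adam18. The spread within groups also separated the members. It was an SD of 0.50 for Adam3a and 0.49 for Adam5, where the median probe set had 0.19, and 0.19, 0.16 and 0.24 for Adam2, Adam18 and Adam32. DBCP replicate 13 was the highest of its group for all 5 members, with 7.00 for Adam2, 6.26 for Adam18 and 7.87 for Adam32. Corn oil replicate 4 was the highest of its group for all but Adam32.

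**Figure D3:**
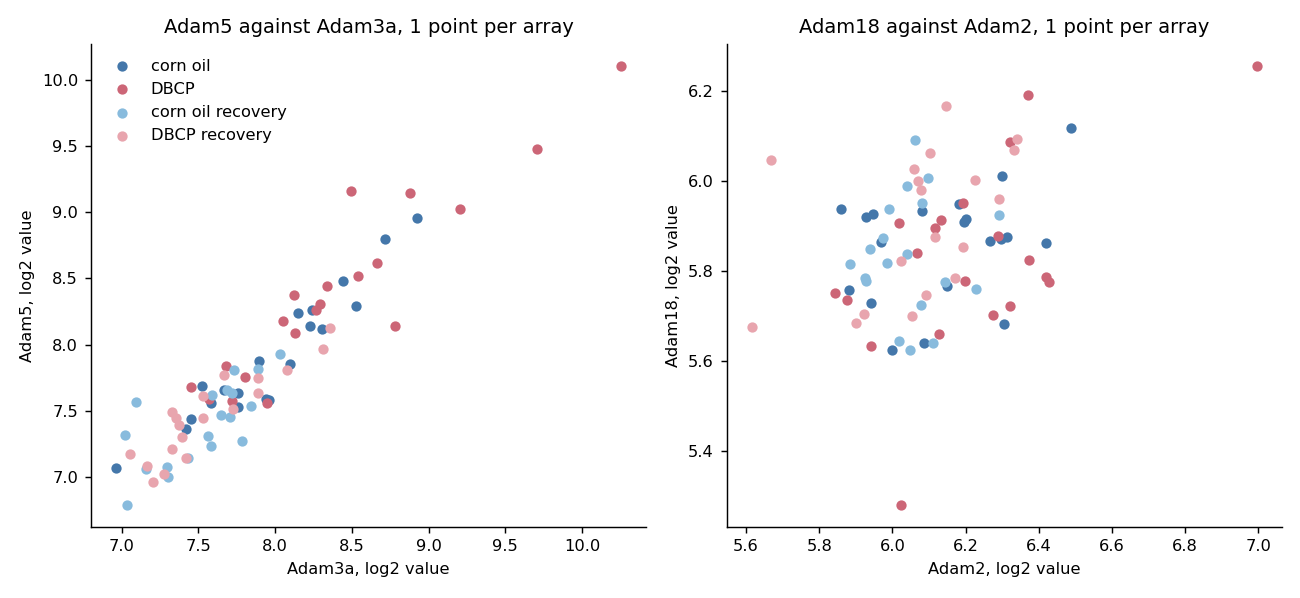
Log2 value of Adam5 against Adam3a (left) and of Adam18 against Adam2 (right), with 1 point per array coloured by group. The left panel is a narrow band that runs from both recovery groups up to a few DBCP arrays, and the right panel is a loose cloud (r within groups 0.910 and 0.435). Without the 6 arrays of low weight these r were 0.862 and 0.339.

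Adam3a and Adam5 also moved with other transcripts of late spermatids. The list of 29 spermatid genes on the array, among them protamines, transition proteins and tail proteins, had 15 falls and 0 rises over time in corn oil rats (median -0.30, all probe sets -0.04). In DBCP rats it had 25 falls and 0 rises (median -0.56, all probe sets 0.01). Of all probe sets 12.8% fell in corn oil rats and 6.19% in DBCP rats. Without the 6 arrays of low weight there were 19 and 24 falls in the list, where 26.2% and 11.7% of all probe sets passed in either direction. Akap4, a protein of the tail's fibrous sheath, had group means of 10.00 and 10.62 in corn oil and DBCP rats at first and 9.27 and 9.25 later, and the protamine Prm2 had 9.56, 10.07, 9.02 and 8.98. The mean level of the list ran from 8.77 to 10.22 in corn oil rats and 9.21 to 11.08 in DBCP rats at the end of exposure, and from 8.75 to 9.70 and 8.95 to 10.01 after recovery. Within groups, the list level had an r of 0.944 to Adam3a, 0.884 to Adam5, 0.770 to Adam32, 0.632 to Adam2 and 0.354 to Adam18 over 78 arrays.

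With every array centred on this spermatid list, the differences of Adam3a and Adam5 were smaller. In corn oil rats the differences over time were -0.11 ± 0.08 for Adam3a and -0.16 ± 0.09 for Adam5 (limma adjusted p = 0.214 and 0.103). In DBCP rats they were -0.15 ± 0.08 and -0.26 ± 0.09 (limma adjusted p = 0.0588 and 0.00415). For the treatments when exposure ended they were 0.10 ± 0.08 and 0.17 ± 0.09 (limma adjusted p = 0.240 and 0.0676).

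On this scale Adam2, Adam18 and Adam32 lay higher after recovery, by 0.24, 0.31 and 0.31 in corn oil rats and by 0.53, 0.75 and 0.59 in DBCP rats. That is close to the difference of the median probe set on this scale (0.30 and 0.68), on which 47.4% and 98.9% of all probe sets passed. The centring adds the same amount to the difference of every probe set in a comparison.

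**Figure D4:**
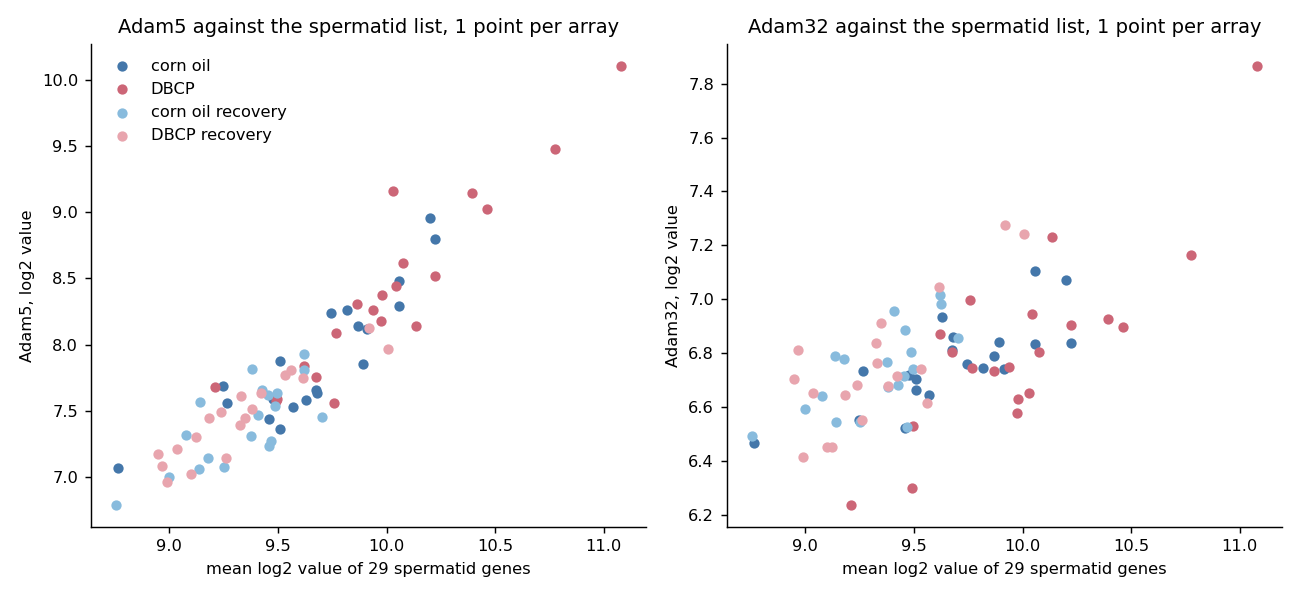
Log2 value of Adam5 (left) and Adam32 (right) against the mean log2 value of 29 spermatid genes on the same array, coloured by group. Adam5 climbs along the list level from the recovery arrays to DBCP replicate 13, at 11.08 on the x axis, while Adam32, on its own y scale from 6.24 to 7.87, forms a looser cloud.

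Markers of other cells moved over time as well. Of 18 leukocyte genes, 13 rose and 0 fell in each treatment (13 and 10 without the 6 arrays of low weight). The mean level of that list ran from 8.18 to 9.06 in corn oil and 8.04 to 8.86 in DBCP rats at the end of exposure, and from 8.53 to 9.50 and 8.44 to 9.27 after recovery. The lowest value of any probe set was 2.54 and no detection call is given, so these levels do not say which leukocyte genes were detected. The 15 epididymal principal cell genes had 1 rise and 1 fall in corn oil rats and 0 of either in DBCP rats, and the 9 genes of pachytene spermatocytes had 1 and 2 falls. Of 11 stromal genes 1 rose and 1 fell in corn oil rats and 2 rose in DBCP rats, of 6 erythrocyte genes 1 fell in corn oil rats, and of 6 Sertoli cell genes 1 fell in each. Over all probe sets, 11.5% rose and 12.8% fell in corn oil rats, and 7.28% rose and 6.19% fell in DBCP rats. Without the 6 arrays of low weight 26.2% and 11.7% passed in either direction. Within groups the leukocyte level had an r of 0.02 to Adam3a and -0.04 to Adam5. In the same order the pachytene spermatocyte level had 0.565 and 0.499, and the Sertoli cell level -0.530 and -0.479. The erythrocyte level had 0.129 and 0.063, the epididymal level -0.151 and -0.181 and the stromal level -0.211 and -0.156. The part of these cells in the falls of Adam3a and Adam5 was not tested.

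Of the other ADAM genes of male germ cells, 6 of 16 listed were on the array. Adam1a, which encodes a fertilin alpha that pairs with the Adam2 protein, fell by 0.22 ± 0.06 in corn oil rats and by 0.16 ± 0.06 in DBCP rats (limma adjusted p = 0.00225 and 0.0425), the second not with quantile normalization (0.0848). Adam4l1 fell by 0.39 ± 0.13 and 0.66 ± 0.13 (limma adjusted p = 0.0173 and 8.87e-05). Adam4 fell in DBCP rats (-0.40 ± 0.10, limma adjusted p = 0.00432) and had -0.25 ± 0.10 in corn oil rats (0.0689). Adam6 (-0.09 ± 0.06 and -0.05 ± 0.06), like Adam30 and Adam34, did not pass. The counts were 2 of 6 lower in corn oil rats and 3 of 6 in DBCP rats, with medians of -0.16 and -0.13. Of all probe sets 12.8% fell in corn oil rats and 6.19% in DBCP rats. Without the 6 arrays of low weight the counts were 3 and 2, where 26.2% and 11.7% of all probe sets passed in either direction. With 6 genes, such counts are not read as a result about the list. With arrays centred on the spermatid list, Adam1a and Adam4 turned above 0 in both comparisons, and Adam4l1 in DBCP rats. Since this centring adds the same amount to every difference in a comparison, such turns say only that the falls were smaller than that amount.

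Of the ADAM genes of other tissues only Adam11 fell in a comparison over time. Adam7, which the epididymis makes and passes to sperm, had 0.13 ± 0.19 and 0.22 ± 0.19 over time, and Adam28, also of the epididymis, -0.07 ± 0.08 and 0.11 ± 0.08, with 0 of both passing. Adam9, a widely expressed metalloprotease and the neighbour of Adam32, rose by 0.44 ± 0.09 in corn oil rats (limma adjusted p = 1.74e-04, higher on 19 of 19 arrays) and had 0.23 ± 0.09 in DBCP rats (0.0676; with quantile normalization 0.26, limma adjusted p = 0.0113). Adam17, which sheds tumour necrosis factor, rose by 0.15 ± 0.05 in each (limma adjusted p = 0.0258 and 0.0355; with quantile normalization 0.0622 in DBCP rats). Adam11 fell by 0.13 ± 0.04 in corn oil rats (limma adjusted p = 0.0228; above 0, at 0.21, with arrays centred on the spermatid list). Of these 6 somatic ADAM genes 2 rose and 1 fell in corn oil rats and 1 rose in DBCP rats. Over all probe sets, 11.5% rose and 12.8% fell in corn oil rats, and 7.28% rose in DBCP rats.

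Genes that process or accompany sperm ADAM proteins were described as a list of 28, of which 22 were on the array. In corn oil rats 5 rose and 2 fell (median -0.07), and in DBCP rats 4 rose and 9 fell (median -0.09). Of all probe sets 11.5% rose and 12.8% fell in corn oil rats, and 7.28% rose and 6.19% fell in DBCP rats. Without the 6 arrays of low weight the counts were 5 and 5 in corn oil rats and 4 and 8 in DBCP rats. There 26.2% and 11.7% of all probe sets passed in either direction. In the comparisons of DBCP with corn oil 0 of 22 passed, with medians of 0.10 when exposure ended and -0.05 after recovery.

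Most genes of this list that fell are known for their part in germ cells. Clgn, a chaperone of the endoplasmic reticulum on which fertilin assembly depends, fell by 0.46 ± 0.11 in DBCP rats (limma adjusted p = 0.00202) and had -0.27 ± 0.11 in corn oil rats (0.0573). The germ cell chaperones Calr3 and Pdilt fell in DBCP rats by 0.21 ± 0.05 and 0.25 ± 0.08. Ace, whose testis form is needed for fertile sperm in mice, fell in both, by 0.44 ± 0.10 and 0.78 ± 0.10 (limma adjusted p = 8.76e-04 and 3.66e-08). Sppl2c, a protease of spermatid membranes, fell by 0.45 ± 0.14 and 1.02 ± 0.14. In DBCP rats Lypd4 (-0.84 ± 0.17), Cmtm2a (-0.85 ± 0.17), Prss37 (-0.80 ± 0.15) and the chaperone Hspa2 (-0.44 ± 0.11) fell too.

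The genes that rose act in the endoplasmic reticulum of cells in general. Hspa5, its main chaperone, rose by 0.69 ± 0.13 in corn oil and 0.52 ± 0.13 in DBCP rats. Calr, calreticulin, rose by 0.69 ± 0.14 and 0.46 ± 0.14, and Pdia3, a disulfide isomerase, by 0.61 ± 0.13 and 0.49 ± 0.13. Pgap1, which remodels lipid anchors, rose by 0.15 ± 0.05 and 0.16 ± 0.05, and Pdia6 in corn oil rats (0.19 ± 0.07, limma adjusted p = 0.0493). The leukocyte list rose in the same comparisons, and its part was not tested. Tpst2 (0.05 ± 0.05 in each) and Tex101 (0.06 ± 0.12 and -0.13 ± 0.12), also needed for male fertility in mice, did not pass. With arrays centred on the spermatid list, Clgn, Calr3, Pdilt and Hspa2 turned above 0 in both comparisons and Prss37 in corn oil rats. The centring adds the same amount to every gene's difference in a comparison. Falls smaller than that amount therefore had to turn, and rises had to stay above 0. On that scale the falls of Ace (-0.10 in corn oil and -0.11 in DBCP rats, limma adjusted p = 0.206 and 0.121) no longer passed, nor did those of Lypd4 (-0.17), Cmtm2a (-0.18) and Prss37 (-0.13) in DBCP rats (limma adjusted p = 0.0779, 0.0638 and 0.252). Sppl2c passed in DBCP rats (-0.35, limma adjusted p = 2.27e-05) and not in corn oil rats (-0.11, limma adjusted p = 0.189).

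**Figure D5:**
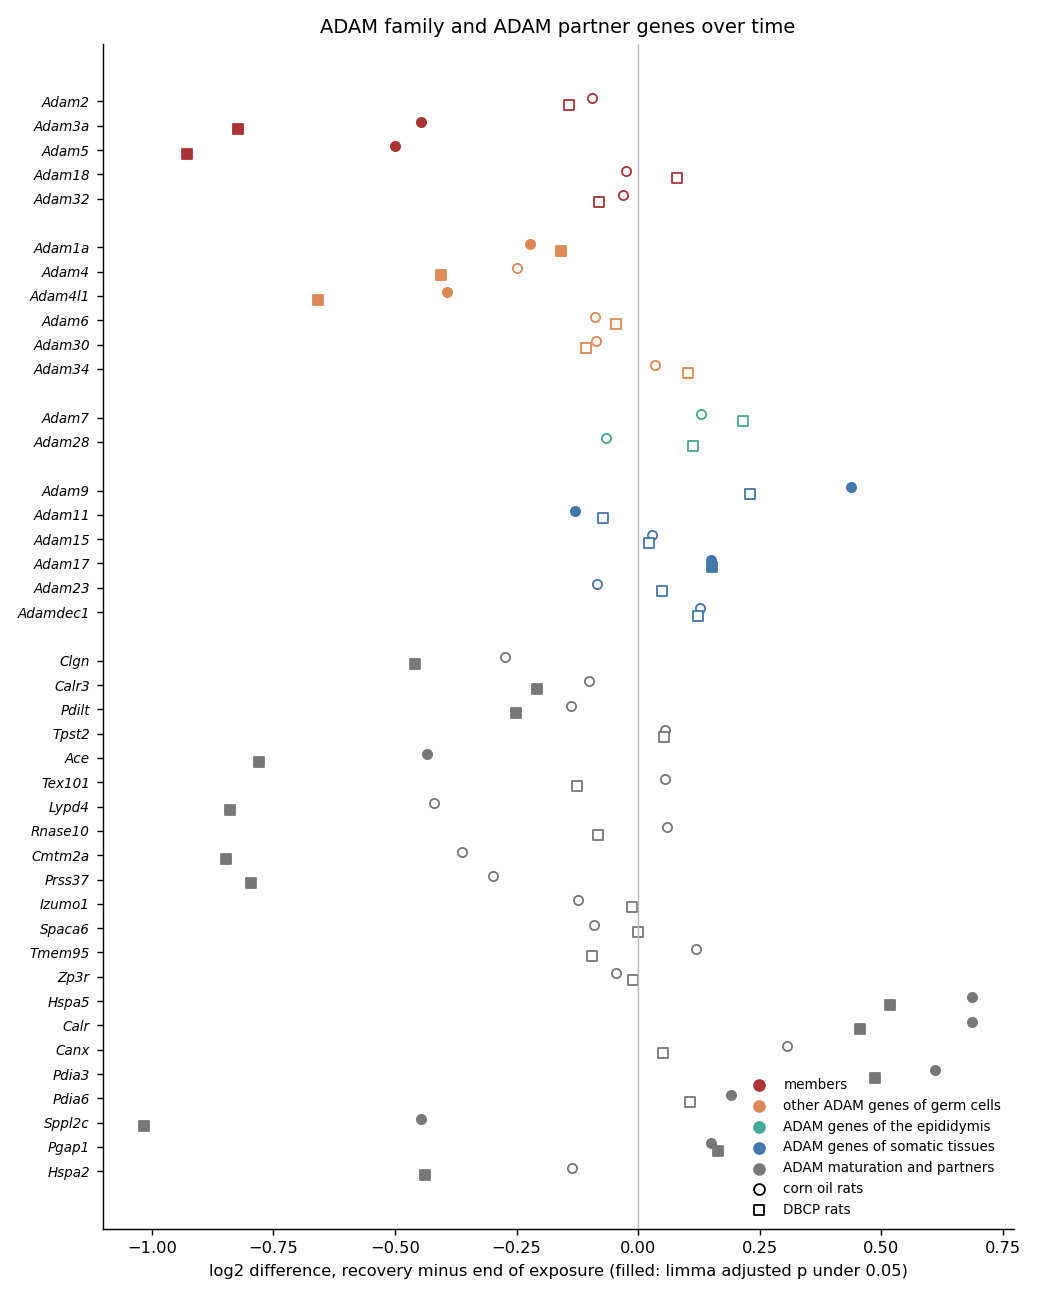
Log2 difference over time (x axis, recovery minus end of exposure) of the members, other ADAM genes and ADAM partner genes (y axis, coloured by list). Circles are corn oil rats, squares are DBCP rats and filled symbols passed limma's test. Adam5, Adam3a and germ cell genes such as Sppl2c (-1.02) and Ace (-0.78) lie to the left in DBCP rats, and Hspa5, Calr and Pdia3 to the right.

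The genes whose pattern was most like that of the 5 members were found by their Pearson r, within groups over 78 arrays, to the mean of the standardised members, among 14501 genes. The first was Mael, which guards germ cells against transposons (r = 0.916), followed by Fhl4 (0.899), the ubiquitin ligase gene Rnf139 (0.898), Cmtm2a (0.897) and Spata4 (0.896). Then came Fabp9, a fatty acid binding protein of sperm (0.895), the glycerol channel gene Aqp7 (0.892), Fam229b (0.882), Asrgl1 (0.879) and Cmtm1 (0.878). Over the 72 arrays without those of low weight their r ran from 0.806 (Cmtm1) to 0.863 (Mael and Cmtm2a). In DBCP rats all 10 fell over time, Fam229b by 1.14 and Spata4 by 0.47, where 6.19% of all probe sets fell. In corn oil rats 5 did (Mael, Fhl4, Fam229b, Asrgl1 and Cmtm1), where 12.8% of all probe sets fell. The genes were picked by their r to the members on the same arrays, so these counts are not independent of the members' values.

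Single members had different nearest genes. For Adam3a they were Fhl4 (0.955), Atp1a4, the sodium pump of sperm (0.952), and Fabp12 (0.950), and for Adam5 they were Spata6 (0.935), Cmtm2a (0.931) and Spa17 (0.930). For Adam32 they were Glrx3 (0.836), Phlpp1 (0.834) and Spink2 (0.833), and for Adam2 Slco6b1 (0.733), Oxct1 (0.716) and Lin7a (0.708). Adam18 had no gene as close, with Akirin2 (0.561), Nek1 (0.553) and Plaat1 (0.546) first. Without the 6 arrays of low weight, r ran from 0.922 to 0.925 for the genes of Adam3a and from 0.901 to 0.923 for those of Adam5. It ran from 0.724 to 0.751 for those of Adam32, from 0.565 to 0.607 for Adam2 and from 0.464 to 0.619 for Adam18.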

How the data were processed

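The authors deposited log2 expression values, 1 column for each of 78 samples, with 29214 probe sets and 0 missing values. Limma is named in the submitters' processing notes, and how arrays were background-corrected, normalized and summarised was not given there. The values were used without rescaling.

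In the platform annotation 15310 probe sets have 1 gene symbol, and 15279 of them matched the RefSeq table (GRCr8) by Entrez identifier. A gene with several probe sets entered by that of highest mean. Limma 3.58.1 in R 4.3.3 fitted group means to all 78 arrays (lmFit and eBayes), checked on simulated data, with Benjamini-Hochberg adjustment over all probe sets and a threshold of 0.05. Pairs of members were compared by permuting group labels, and for the interaction by permuting recovery labels within a treatment. Intervals of pairs are normal ones.

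The text names the members, ADAM relatives and partner genes that passed, a few set by name, defining markers, and the genes of highest r (10 for all members, 3 for each). Adam10 and Adam24, also set by name, were not analysed here. The members and lists were chosen with earlier results of these data known. The alternatives were other scalings, filters, weights, variance priors, blocks, subsets of arrays, leaving out each array and a threshold of 0.10. Labels do not say how the replicates were obtained, so p-values measure the spread between these samples.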

Additional observations from a re-analysis of the deposited data

How the results depend on the processing

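The falls of Adam3a and Adam5 in DBCP rats kept their direction under every alternative run, and those in corn oil rats too, with the losses of calls given here. Centring arrays on their median left 1 member passing in corn oil rats over time, and leaving out each array left 1 to 2. Replicate numbers 11 to 20 alone left 0, with 385 probe sets passing there and 505 in DBCP rats over time. Centring on the spermatid list shifts all probe sets of a comparison by the same amount. It gave 3 members (24561 probe sets) for DBCP at the end of exposure and 4 (28900) for DBCP rats over time. For corn oil rats over time 13849 probe sets passed on it. The 4 are Adam5, which fell, and Adam2, Adam18 and Adam32, which lay higher. The calls of Adam3a in DBCP rats (-0.153, limma adjusted p = 0.0588) and of Adam3a and Adam5 in corn oil rats (-0.107 and -0.162, limma adjusted p = 0.214 and 0.103) were lost. It turned Adam2 and Adam32 to -0.246 and -0.26 at the end of exposure and to 0.283 and 0.28 in the interaction. It also turned Adam2, Adam18 and Adam32 to 0.244, 0.314 and 0.308 in corn oil rats, and Adam2 and Adam32 to 0.526 and 0.588 in DBCP rats.

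Among probe sets above the median level 2375 passed in DBCP rats over time. Among those with 1 symbol 4621 passed in corn oil rats over time and 1 for DBCP at the end of exposure, where leaving out each array gave 0 to 14 (14 without DBCP replicate 12). Of the pairs of members, 7 instead of 18 passed in numbers 11 to 20, with 0 instead of 6 in corn oil rats over time. For DBCP at the end of exposure 5 became 2 with quantile normalization, 0 without the 6 arrays of low weight, 0 in numbers 1 to 10 and 1 in numbers 11 to 20. Beyond the spermatid centring, the cause of these changes was not tested.

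Differences near 0, none of them passing, changed sign. For DBCP at the end of exposure these were Adam18 with quantile normalization (0.007) and in numbers 11 to 20 (0.072), and Adam32 in numbers 1 to 10 (-0.041) and without the 6 arrays (-0.024). After recovery Adam32 turned with quantile normalization (-0.007), median centring (-0.003), array weights (-0.012), in numbers 1 to 10 (-0.008), without the 6 arrays (-0.043) and with single arrays left out (-0.019 to 0.029). Adam3a turned there with array weights (-0.021), without the 6 arrays (-0.039) and with single arrays left out (-0.003 to 0.069), and Adam5 in numbers 1 to 10 (-0.063) and without the 6 arrays (-0.006). In the interaction Adam2 (0.008) and Adam32 (0.033) turned in numbers 1 to 10, Adam18 in 11 to 20 (-0.019), and Adam32 with single arrays left out (-0.082 to 0.004). Over time Adam18 turned in corn oil rats with quantile normalization and median centring (0.005 each), and in DBCP rats in numbers 11 to 20 (-0.061). Adam32 turned in DBCP rats in numbers 1 to 10 (0.023). In those numbers Adam18 passed in DBCP rats (0.218, limma adjusted p = 0.0408).

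With the replicate number as a block, the falls over time were -0.472 (Adam3a) and -0.522 (Adam5) in corn oil rats and -0.793 and -0.912 in DBCP rats (limma adjusted p = 0.0282, 0.0128, 3.27e-04 and 2.74e-05), and no member's call changed. Labels do not say whether the numbers pair the samples, and correlations of deviations cannot decide it. Of 20 same-numbered pairs of corn oil and DBCP arrays 9 had deviations that correlated above 0.1, and 3 correlated best with their own number. The median r was 0.065 for these pairs and -0.012 for unlike numbers. For same numbers it was -0.032 between the recovery groups. Over time it was -0.077 in corn oil rats and -0.055 in DBCP rats. Each member has 1 probe set, so no other could be tried, and the interaction has no fit with fewer groups.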

Other observations

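The genes beside the members on the chromosome were chosen by position. Of the 10 protein-coding neighbours within 3 genes of a member that were on the array, 3 rose and 0 fell over time in corn oil rats, where 11.5% of all probe sets rose and 12.8% fell. In DBCP rats 1 rose and 0 fell, where 7.28% rose and 6.19% fell. With 10 genes, such counts are not read as a result about the neighbours. Ido1, which breaks down tryptophan and lies next to Adam18, rose by 0.25 ± 0.09 in corn oil rats (limma adjusted p = 0.0331, higher on 16 of 19 arrays) and had 0.01 ± 0.09 in DBCP rats (0.972). Ptk2b, a kinase gene near Adam2, rose by 0.24 ± 0.06 and 0.16 ± 0.06 (limma adjusted p = 0.00122 and 0.0465). Ephx2 and Gulo, on either side of Adam2, had -0.09 ± 0.05 each in corn oil rats and -0.07 ± 0.05 and 0.01 ± 0.05 in DBCP rats, and did not pass. Adam9, on the other side of Adam32, is the third gene that rose in corn oil rats.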
